A study of Mus musculus with 48 samples.

Results

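Growth hormone acts on the male mouse liver through the transcription factor STAT5B, and the 7 genes described here are targets, feedback inhibitors or regulators of that pathway: Hsd3b5, Elovl3, Slco1a1, Socs2, Cish, Stat5b and Bcl6. Their probes on the array were all those that carry one of these gene names and are not control spots. This gave 13 of 56605 probes, of which 12 were among the 30793 kept after the filter on dim probes, and all 7 genes were among the 20486 genes kept. The genes were chosen with results of these data known. Their change under a high-fat diet in fed mice with intact p110α is taken as the value they were selected on, and it is given below as a description, with no test. Below it is called the comparison that chose the genes, which is an assumption.

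Liver RNA came from male mice with or without p110α, the catalytic subunit of PI3K that the gene Pik3ca encodes, in hepatocytes. LWT mice (p110α hep+/+) carried the floxed p110α alleles without Cre, and LKO mice (p110α hep-/-) carried the same floxed alleles and the albumin-Cre transgene, which is active in hepatocytes, so that the other cells of the liver keep the gene. From 12 weeks of age, mice received a control diet (CTRL, D12450J) or a high-fat diet (HFD, D12492, with 60% of calories from fat) for 12 weeks. Mice were then fed ad libitum or fasted for 24 h, and all were killed at ZT16, in the dark phase. Each of the 8 groups of genotype, diet and nutritional state had 6 mice, with 1 array per mouse and 48 arrays in all.

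In male rodents, the pituitary releases growth hormone in pulses. The hormone binds its receptor on hepatocytes, JAK2 phosphorylates STAT5B, and STAT5B enters the nucleus and binds DNA at sites with the letters TTCNNNGAA. Male-specific genes such as Hsd3b5 depend on these pulses, the SOCS family members Socs2 and Cish are induced and damp the signal, and the repressor Bcl6 is itself repressed by STAT5.

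The promoter sequences of the genes that the results below turn on are shown to let a reader see where these letters lie. RefSeq windows on GRCm38.p6 (250 bases before to 50 bases after each gene start) were found for 5 of the 7 genes, Hsd3b5, Slco1a1, Cish, Stat5b and Bcl6, with 7 windows in all. The motif TTCNNNGAA reads the same on both strands. It was in 3 of these 7 windows, namely the window of Cish and both windows of Bcl6, and in 8.3% of the 32851 windows of the table. The Cish window held 2 matches, at positions 1 to 9 and 12 to 20 from the start of the gene, and the inner window of Bcl6 held 3, which begin at positions -168, -122 and -88. At least 2 matches were in 0.457% of all windows and at least 3 in 0.0335%. The printed stretches run 5′ to 3′ on the strand of the gene, with matches in capitals. They are chr9:107296539-107296688 on the plus strand for Cish, chr16:23981284-23981483 and chr16:23988853-23989052 on the minus strand for Bcl6, chr3:98645535-98645654 on the minus strand for Hsd3b5 and chr6:141946963-141947082 on the minus strand for Slco1a1.
Cish: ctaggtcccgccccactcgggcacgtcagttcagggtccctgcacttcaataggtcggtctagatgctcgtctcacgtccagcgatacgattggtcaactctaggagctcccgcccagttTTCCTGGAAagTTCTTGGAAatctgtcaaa
Bcl6, inner window: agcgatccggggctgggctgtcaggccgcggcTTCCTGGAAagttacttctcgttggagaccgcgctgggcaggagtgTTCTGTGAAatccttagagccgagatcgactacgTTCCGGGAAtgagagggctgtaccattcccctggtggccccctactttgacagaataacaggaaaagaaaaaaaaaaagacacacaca
Bcl6, outer window: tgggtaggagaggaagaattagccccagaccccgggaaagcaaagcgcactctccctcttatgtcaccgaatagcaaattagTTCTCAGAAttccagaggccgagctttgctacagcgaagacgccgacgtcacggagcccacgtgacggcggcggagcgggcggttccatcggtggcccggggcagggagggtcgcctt
Hsd3b5: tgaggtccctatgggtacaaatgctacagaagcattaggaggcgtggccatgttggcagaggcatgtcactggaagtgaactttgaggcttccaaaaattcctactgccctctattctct
Slco1a1: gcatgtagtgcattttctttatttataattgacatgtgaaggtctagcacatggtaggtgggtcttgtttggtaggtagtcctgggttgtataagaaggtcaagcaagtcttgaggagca
A match describes letters only, and the absence of the motif from the Hsd3b5, Slco1a1 and Stat5b windows says only that these letters are not in these bases.

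Each gene was read on its brightest kept probe, and levels are log2 signals after normalization, which cannot be compared between genes. In the mm9 positions of the array design, these probes lie at chr3:98422576-98422635 for Hsd3b5, chr19:46209325-46209384 for Elovl3, chr6:141857328-141857387 for Slco1a1, chr10:94875066-94875125 for Socs2, chr9:107204196-107204255 for Cish, chr11:100642045-100642104 for Stat5b and chr16:23965160-23965219 for Bcl6. Elovl3 and Cish lie on the plus strand and the other 5 on the minus strand. All 7 probes were well above background on 48 of 48 arrays, except that of Hsd3b5, which was so on 47.

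Between 52.3% and 59.3% of spots were well above background on an array. The labelled sex was checked on 4 Y-linked genes, Ddx3y, Uty, Eif2s3y and Kdm5d, which were above background on 48 of 48 arrays, and on Xist, which was on 1. The mean level of 5 hepatocyte markers lay between 16.13 and 17.08 on all arrays, with higher group medians in LKO than in LWT livers of the same diet and state. The Pik3ca probe did not read lower in LKO livers (group means of 12.74 to 13.32 in LWT and 13.23 to 13.50 in LKO), and whether it lies in the deleted part is not known here, so it does not check the genotype. Arrays of 2 mice were closer to the mean of fed LKO CTRL livers than to that of their own group, namely replicate 2 of fed LWT CTRL and replicate 3 of fed LKO HFD. Without both arrays, each of the called changes of the 7 genes in the tested comparisons was still called. The HFD differences in fed LWT livers were then -6.48 for Hsd3b5, -2.47 for Slco1a1, -0.99 for Socs2, -0.82 for Cish, 0.34 for Stat5b, 0.69 for Bcl6 and 0.0029 for Elovl3 on the log2 scale. In bulk liver RNA, fewer cells of a type and less RNA per cell cannot be told apart.

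Hsd3b5, a male-specific hepatic enzyme of the 3β-hydroxysteroid dehydrogenase family, and Slco1a1, a male-predominant uptake transporter for organic anions, had their lowest levels under HFD. In fed LWT livers on CTRL diet, the lowest, median and highest Hsd3b5 levels were 11.58, 12.43 and 13.88. On HFD they were 5.46, 5.93 and 7.25, so the groups did not overlap, and the log2 difference of -6.59 ± 0.70 (SE, n = 6 per group) is about 96.2-fold. Slco1a1 levels in the same mice were 11.21, 11.81 and 12.23 on CTRL diet and 7.78, 9.46 and 10.21 on HFD, with no overlap and a log2 difference of -2.51 ± 0.44. These 2 differences belong to the comparison that chose the genes, in which 3.71% of all genes passed both thresholds used below, and they are not tested here. The Hsd3b5 signals of fed LWT HFD livers lay near the background of the array, which is not subtracted, and the log2 difference was -7.59 with the background-subtracted signal of the scanner software. In the same mice, the stellate marker Col1a1 differed by 1.28 and the hepatocyte marker Cps1 by -0.82 on the log2 scale. These were the extremes of their lists. The 5 hepatocyte markers had a median difference of 0.03 and a highest of 0.09. The 4 stellate markers had a median of 0.11 and a lowest of -0.02. The mean of the 4 stellate markers was 8.09 to 8.83 on CTRL diet and 8.84 to 9.30 on HFD. The part of these markers in the differences was not tested.

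The other 5 genes differed less in that comparison. Socs2 had a log2 difference of -1.17 ± 0.37, Cish of -0.96 ± 0.51, Bcl6 of 0.65 ± 0.61, Stat5b of 0.34 ± 0.09 and Elovl3 of -0.05 ± 0.37. The Stat5b arrays of the 2 diets did not overlap, at a 1.26-fold difference, while those of Socs2, Cish, Bcl6 and Elovl3 did. The share of all genes without overlap is not given here. The dimmer Bcl6 probe, annotated to another transcript, had a log2 difference of -0.75 ± 0.67, opposite in sign to the main probe.

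**Figure D1:**
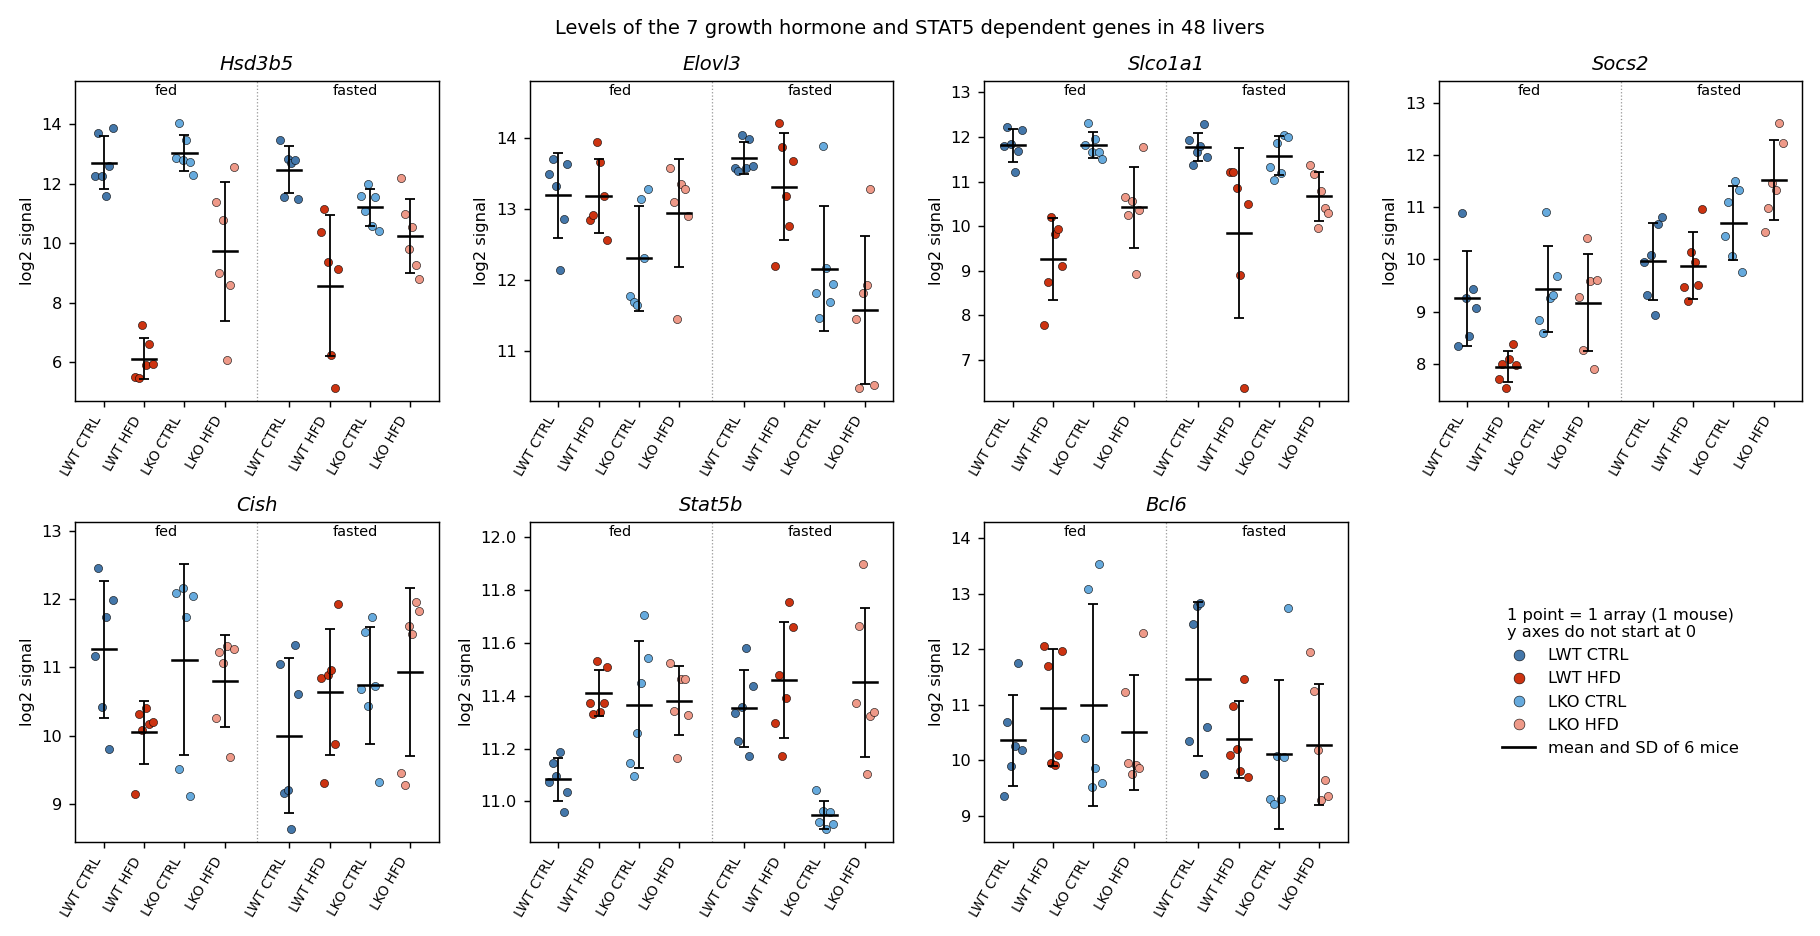
Log2 signal (y axis) of the 7 genes on each of the 48 arrays, by genotype and diet (x axis), with fed mice left and fasted mice right of the dotted line. Points are mice, bars are the mean and SD of 6. Hsd3b5 lies between 5.46 and 7.25 in the 6 fed LWT HFD livers and between 11.58 and 13.88 in fed LWT CTRL livers.

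The effect of HFD was then compared in the 3 settings other than the one taken to have chosen the genes. A gene was called when the adjusted p from limma, over all probes kept, was at most 0.05 and the fold change exceeded 1.5. In fed LKO livers, 1 of the 7 genes was called, beside 2.34% of all genes. In fasted LWT livers, 2 were called, beside 2.82%. In fasted LKO livers, limma called 0 of the 7, beside 1.89%, with 1 gene at an unadjusted p under 0.05. Here and below, the shares of all genes are for both thresholds. No share of all genes is given for an unadjusted p under 0.05, so counts at that level cannot be set against a background. The median log2 differences of the 7 genes were -0.52, -0.33 and -0.03, against -0.0004, -0.0185 and -0.0006 over all genes.

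Hsd3b5 fell under HFD in fed LKO livers and in fasted LWT livers. Its lowest, median and highest levels in fed LKO livers were 12.29, 12.83 and 14.02 on CTRL diet and 6.06, 9.88 and 12.56 on HFD. Only the highest HFD mouse overlapped the CTRL group, and the other 5 lay below it. The log2 change was -3.41 ± 0.77 (adjusted p = 0.00187), and -3.50 without the 2 arrays named above. In fasted LWT livers, the levels were 11.48, 12.74 and 13.46 on CTRL diet and 5.13, 9.23 and 11.15 on HFD. All HFD mice lay below all CTRL mice, with a log2 change of -3.86 ± 0.70 (adjusted p = 0.000158). The HFD mouse at 5.13, replicate 5, was not well above background on this probe, so its level is near the floor. In fasted LKO livers, the levels were 10.41, 11.32 and 11.99 on CTRL diet and 8.78, 10.17 and 12.19 on HFD. These groups overlapped, and the log2 difference of -0.94 (95% confidence interval -2.46 to 0.59, adjusted p = 0.499) did not pass.

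Slco1a1 passed in fasted LWT livers and in neither LKO comparison. Fasted LWT livers had levels of 11.37, 11.73 and 12.29 on CTRL diet and 6.37, 10.68 and 11.21 on HFD. The groups did not overlap, and Slco1a1 fell by 1.83 ± 0.44 on the log2 scale (adjusted p = 0.00337), with a second probe at -1.80 (adjusted p = 0.00373). In fed LKO livers, the levels were 11.51, 11.74 and 12.31 on CTRL diet and 8.94, 10.46 and 11.78 on HFD, which overlap, with a log2 difference of -1.37 ± 0.48 (adjusted p = 0.0549) that missed the threshold. Without replicate 6 of fed LKO HFD, it was -1.64 (adjusted p = 0.0220). Fasted LKO livers had levels of 11.04, 11.59 and 12.04 on CTRL diet and 9.96, 10.61 and 11.37 on HFD, with a log2 difference of -0.82 (95% confidence interval -1.78 to 0.13, adjusted p = 0.301).

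Within the 2 washing batches of 24 arrays, the fall of Hsd3b5 and Slco1a1 under HFD in fasted LWT livers kept its direction but not its size. Hsd3b5 differed by -2.48 (adjusted p = 0.0561) in batch 1 and -4.94 (adjusted p = 0.00461) in batch 2, and Slco1a1 by -0.73 (adjusted p = 0.337) and -2.75 (adjusted p = 0.0189), with 3 mice per group in each. The Hsd3b5 change in fed LKO livers was -4.28 (adjusted p = 0.000636) in batch 1 and -2.44 (adjusted p = 0.351) in batch 2. Among 4 stellate cell markers, Col1a1 was higher on HFD in fasted LWT livers by 1.83 on the log2 scale (adjusted p = 1.89e-06) and the other 3 did not pass. The mean of the 4 markers was 7.98 to 8.36 on CTRL diet and 8.18 to 9.15 on HFD there, and its part in these results was not tested.

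LKO and LWT livers were compared within each diet and nutritional state. On CTRL diet in fed mice, limma called 0 of the 7 genes, beside 3.73% of all genes, with 2 at an unadjusted p under 0.05. On HFD in fed mice, 1 gene was called, beside 6.23%. In fasted mice, 2 were called on CTRL diet, beside 3.23%, and 2 on HFD, beside 6.56%. Both fed comparisons use fed LWT arrays of the comparison that chose the genes, so their counts are descriptions.

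In fed mice on HFD, Hsd3b5 levels read higher in LKO than in LWT livers, which is given as a description. The LWT levels of 5.46 to 7.25 and the LKO levels of 6.06 to 12.56 overlapped through 1 LKO mouse, and the log2 change was 3.49 ± 0.73 (adjusted p = 0.000249), or 3.41 without the 2 arrays. This comparison shares the fed LWT HFD arrays with the one that chose the genes. Its values are descriptions, and its adjusted p values do not count as a test. Socs2 and Slco1a1 had levels 1.92-fold (adjusted p = 0.0621) and 2.15-fold (adjusted p = 0.0622) as high and did not pass on the main probe. On a second probe to the same RefSeq transcript, the log2 values were 0.94 (adjusted p = 0.0363) and 1.18 (adjusted p = 0.0445), while the dim Socs2 probe to another transcript gave 0.0080. In the same comparison, the stellate cell marker Col1a1 was at -1.78 (adjusted p = 8.04e-07), the other 3 stellate markers were not called, 1 of the 5 hepatocyte markers was called higher, and 1 of the 4 cholangiocyte markers, Krt19, was at -0.89 (adjusted p = 0.000117). The part of these markers in the results was not tested. On CTRL diet, Hsd3b5 did not differ detectably between genotypes, with a log2 difference of 0.32 (95% confidence interval -1.16 to 1.80) in fed and -1.23 (-2.65 to 0.19) in fasted mice. In fasted HFD mice, the difference of 1.70 (0.17 to 3.22, adjusted p = 0.0770) did not pass, and it passed without replicate 1 (1.95, adjusted p = 0.0481) or replicate 2 (2.38, adjusted p = 0.0118) of fasted LWT HFD.

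Elovl3, an elongase of very long chain fatty acids with higher expression in male liver, was lower in LKO than in LWT livers of fasted mice. On CTRL diet, the lowest, median and highest levels were 13.54, 13.59 and 14.05 in fasted LWT and 11.47, 11.89 and 13.88 in fasted LKO livers. A single LKO mouse reached the LWT range, and the log2 change was -1.47 ± 0.37 (adjusted p = 0.00271), with -2.02 (adjusted p = 0.0138) in washing batch 1 and -1.001 (adjusted p = 0.194) in batch 2. On HFD, they were 12.20, 13.44 and 14.21 in fasted LWT and 10.49, 11.64 and 13.28 in fasted LKO livers, again with overlap, and the change was -1.89 ± 0.40 (adjusted p = 0.000212). In fed mice, Elovl3 levels were 12.14, 13.42 and 13.71 in LWT and 11.66, 12.04 and 13.28 in LKO livers on CTRL diet, a log2 difference of -0.94 ± 0.38 (adjusted p = 0.0760). On HFD they were 12.57, 13.05 and 13.95 in fed LWT and 11.46, 13.20 and 13.57 in fed LKO livers, a log2 difference of -0.05 (95% confidence interval -0.82 to 0.73). HFD gave no call for Elovl3 in the 3 tested settings, where the log2 differences were 0.85 in fed LKO (adjusted p = 0.185), -0.33 in fasted LWT (adjusted p = 0.589) and -0.76 in fasted LKO livers (adjusted p = 0.246).

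Bcl6 was also lower in LKO than in LWT livers of fasted CTRL mice, where it fell by 1.68 ± 0.62 on the log2 scale (adjusted p = 0.0422) in the fit that weights arrays by quality. The unweighted means were 11.46 and 10.11. The levels spread from 9.74 to 12.84 in LWT and from 9.22 to 12.73 in LKO livers, so the groups overlapped widely. The call was lost when any of 7 of the 12 arrays was left out, with log2 differences of -1.33 to -1.74 and adjusted p of 0.0612 to 0.149 in those cases. The dimmer probe gave -0.83 (adjusted p = 0.419). The call was also lost under 9 of 16 alternatives, with -1.35 (adjusted p = 0.157) without array weights, -1.25 (adjusted p = 0.230) with the median over probes and -1.51 (adjusted p = 0.134) with no filter on dim probes, and it was -2.34 (adjusted p = 0.0422) within washing batch 1 and -0.89 (adjusted p = 0.566) within batch 2.

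Markers of other cells also differed between the genotypes of fasted mice. Col1a1 was lower in LKO livers, at -1.001 on the log2 scale on CTRL diet (adjusted p = 0.00255) and -2.33 on HFD (adjusted p = 6.37e-09), and the other 3 stellate markers were not called. The mean of the 4 stellate markers ran from 7.98 to 8.36 in fasted LWT CTRL, 7.84 to 8.22 in fasted LKO CTRL, 8.18 to 9.15 in fasted LWT HFD and 7.91 to 8.37 in fasted LKO HFD livers. Of 4 cholangiocyte markers, Krt19 was lower in LKO livers on both diets, at -0.74 (adjusted p = 0.00102) and -0.73 (adjusted p = 0.00136). On HFD, 1 of 4 endothelial and 1 of 5 hepatocyte markers were higher in LKO livers, and on CTRL diet limma called 0 in both lists, with 4 in each at an unadjusted p under 0.05. The part of these markers in the Elovl3, Bcl6 and Socs2 results was not tested.

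**Figure D2:**
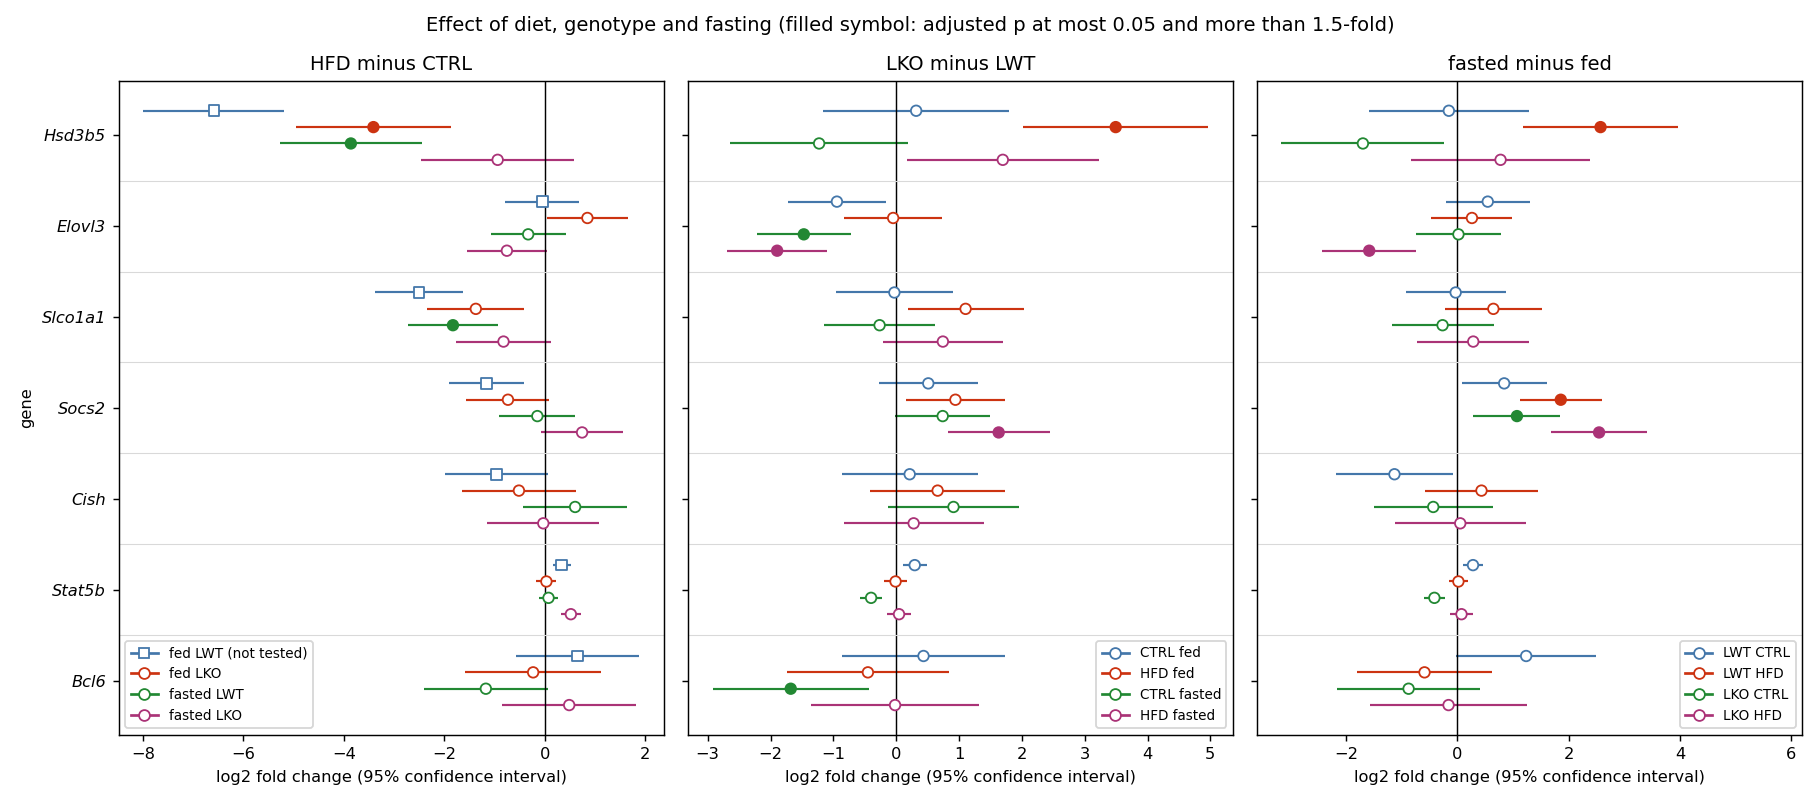
Log2 fold change with its 95% confidence interval (x axis) of each gene (y axis) for HFD minus CTRL, LKO minus LWT and fasted minus fed, in 4 settings each. Filled symbols passed both thresholds and squares were not tested. Hsd3b5 and Slco1a1 stand left of 0 under HFD, and Socs2 right of 0 under fasting.

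Fasting was compared with feeding in each genotype and diet. Limma called 0 of the 7 genes in LWT CTRL livers, beside 5.46% of all genes, with 3 at an unadjusted p under 0.05. The count was 1 in LKO CTRL livers, beside 7.08%, 2 in LWT HFD livers, beside 4.72%, and 2 in LKO HFD livers, beside 5.9%. Both LWT comparisons use fed arrays of the comparison that chose the genes, so their counts are descriptions.

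Socs2, which encodes a feedback inhibitor of growth hormone receptor signalling, was called higher with fasting in both LKO settings and in LWT HFD livers. The LWT HFD value is a description, since its fed arrays belong to the comparison that chose the genes. In LWT HFD livers, the lowest, median and highest levels were 7.54, 7.98 and 8.38 when fed and 9.20, 9.73 and 10.97 when fasted. In LKO HFD livers, they were 7.89, 9.42 and 10.41 when fed and 10.53, 11.39 and 12.60 when fasted. Neither pair of groups overlapped, and the log2 changes were 1.86 ± 0.37 (adjusted p = 0.000124) and 2.55 ± 0.43 (adjusted p = 1.27e-05, or a change of 2.65 without the 2 arrays). The LWT HFD comparison shares the fed arrays that chose the genes, and within it Socs2 was at 1.71 (adjusted p = 0.0698) in washing batch 1 and 1.96 (adjusted p = 0.00545) in batch 2. On CTRL diet the groups overlapped, with levels of 8.34, 9.16 and 10.88 in fed LWT, 8.93, 10.01 and 10.81 in fasted LWT, 8.59, 9.29 and 10.92 in fed LKO and 9.75, 10.77 and 11.49 in fasted LKO livers. The log2 difference was 0.84 ± 0.38 (adjusted p = 0.0896) in LWT and 1.07 ± 0.39 (adjusted p = 0.0285) in LKO livers. A second Socs2 probe gave 0.95 (adjusted p = 0.0289) in LWT and a 2.14-fold rise (adjusted p = 0.0114) in LKO livers. The call on the main probe in LKO CTRL livers was lost when any of 7 of the 12 arrays was left out, with log2 differences down to 0.87 (adjusted p = 0.101), and it was 0.22 (adjusted p = 0.815) within washing batch 1 and 1.80 (adjusted p = 0.0131) within batch 2.

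Fasted LKO HFD livers had the highest Socs2 levels of the 8 groups and fed LWT HFD livers the lowest. Between genotypes, fasted HFD livers differed by 1.63 ± 0.40 on the log2 scale (adjusted p = 0.00140), with LKO higher and with 0.86 to 1.62 on the 2 other probes kept, both called. The dim Socs2 probe gave 0.30 (adjusted p = 0.219) for fasting in LWT HFD livers and was called in the other 3 settings. With fasting, Col1a1 was at -0.83 in LWT CTRL (adjusted p = 0.00963), -1.18 in LKO CTRL (adjusted p = 0.000346) and -0.82 in LKO HFD livers (adjusted p = 0.0262). A second stellate marker, Lrat, was at -0.68 in LWT CTRL livers (adjusted p = 0.000784), and the cholangiocyte marker Krt19 at -1.05 in LKO CTRL livers (adjusted p = 5.4e-06). Of the 5 hepatocyte markers, 1 was called higher with fasting in each of LWT CTRL, LKO CTRL and LWT HFD livers. The part of these markers in the fasting results was not tested.

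Cish, the other inhibitor of this family, was called in none of the 15 tested comparisons, and its log2 differences under fasting were -1.13 ± 0.52 in LWT CTRL (adjusted p = 0.0950), -0.43 in LKO CTRL, 0.43 in LWT HFD and 0.05 in LKO HFD livers. Its lowest, median and highest levels in fed mice were 9.80, 11.45 and 12.45 in LWT CTRL, 9.14, 10.18 and 10.41 in LWT HFD, 9.12, 11.89 and 12.16 in LKO CTRL and 9.68, 11.15 and 11.31 in LKO HFD livers. In fasted mice they were 8.64, 9.91 and 11.32 in LWT CTRL, 9.30, 10.87 and 11.93 in LWT HFD, 9.32, 10.70 and 11.74 in LKO CTRL and 9.27, 11.55 and 11.95 in LKO HFD livers. All 8 groups overlapped one another. The 8 group medians of Bcl6 lay between 9.67, in fasted LKO CTRL, and 11.53, in fasted LWT CTRL livers, and its levels ran from 9.22 to 13.53 over all mice.

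In LWT HFD livers, Hsd3b5 lay at 5.46 to 7.25 in fed mice and at 5.13 to 11.15 in fasted mice. The ranges overlapped, since 2 of the 6 fasted mice stayed at 5.13 and 6.25, and the log2 change was 2.57 ± 0.69 (adjusted p = 0.00390). This comparison, too, uses the fed LWT HFD arrays on which the genes were selected, so its values are descriptions. The Hsd3b5 change was 4.82 (adjusted p = 0.000258) in washing batch 1 and 0.50 (adjusted p = 0.779) in batch 2. In LKO CTRL livers, Hsd3b5 had a log2 difference of -1.70 ± 0.73 (adjusted p = 0.0660) although the groups did not overlap, in LKO HFD livers of 0.78 and in LWT CTRL livers of -0.15. Elovl3 fell by 1.59 ± 0.42 with fasting in LKO HFD livers (adjusted p = 0.00356, with 1.70 without the 2 arrays), while its log2 differences in the other 3 settings were 0.02 to 0.54 and did not pass. The Elovl3 value was -1.56 (adjusted p = 0.0792) in washing batch 1 and -1.32 (adjusted p = 0.113) in batch 2.

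Stat5b, the transcription factor of the pathway, varied least, with a standard deviation within groups of 0.17 against 0.73 to 1.38 for the other 6 genes. Its lowest, median and highest levels were 10.96, 11.08 and 11.19 in fed LWT CTRL and 11.17, 11.35 and 11.58 in fasted LWT CTRL livers. They were 11.09, 11.35 and 11.71 in fed LKO CTRL and 10.90, 10.94 and 11.04 in fasted LKO CTRL livers. In the 4 HFD groups the medians lay between 11.36 and 11.43. On CTRL diet, the fasted minus fed difference was 0.28 ± 0.09 in LWT (adjusted p = 0.0156) and -0.41 ± 0.09 in LKO livers (adjusted p = 0.000429), both below 1.5-fold. The difference between these effects was itself tested, and the interaction of -0.69 ± 0.13 (adjusted p = 0.00128) was called, as the sole member among the 7, beside 1.32% of all genes. It was -0.65 (adjusted p = 0.0635) and -0.71 (adjusted p = 0.23) within the washing batches, and a dimmer Stat5b probe gave -0.90 (adjusted p = 0.0103). Without the 2 arrays named above it was -0.70 (adjusted p = 0.00147). The interaction and the LWT fasting difference use the fed LWT CTRL arrays, which also entered the comparison that chose the genes, so their values are descriptions.

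Stat5b differences below 1.5-fold also passed the adjusted p in other comparisons. HFD livers were higher than CTRL livers in fasted LKO mice by 0.52 ± 0.10 (adjusted p = 0.000247), with no overlap, and the dimmer probe gave 0.64 (adjusted p = 0.00584). LKO livers were lower than LWT livers in fasted CTRL mice, with a difference of -0.40 ± 0.09 (adjusted p = 0.000841) and no overlap, and higher in fed CTRL mice by 0.29 ± 0.09 (adjusted p = 0.0202), with overlap and with the same fed LWT CTRL arrays.

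The other interactions gave no call in limma for the 7 genes, although Stat5b passed the adjusted p below 1.5-fold for genotype by diet in fasted mice, at 0.44 (adjusted p = 0.0404), and for diet by fasting in LKO livers, at 0.49 (adjusted p = 0.0205). In the genotype by diet interaction of fasted mice, 0 of 7 were called, beside 1.88% of all genes, and 2 had an unadjusted p under 0.05. Hsd3b5 stood at 2.92 ± 1.03 (adjusted p = 0.0888) there, so its smaller HFD difference in fasted LKO than in fasted LWT livers did not pass a test of the difference. In the genotype by fasting interaction on HFD, 0 of 7 were called, beside 1.4%, and 1 had an unadjusted p under 0.05, Elovl3 with -1.85 ± 0.55 (adjusted p = 0.0519). This interaction also uses the fed LWT HFD arrays, so its values are descriptions. In the diet by fasting interaction of LKO livers, 0 of 7 were called, beside 2.9%, and 4 had an unadjusted p under 0.05. The 2 interactions that contain the HFD comparison of fed LWT livers are given without a test, with Hsd3b5 at 3.18 for genotype by diet in fed mice and 2.73 for diet by fasting in LWT mice.

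The 7 genes were next compared from mouse to mouse inside the groups. The comparison assumed to have chosen the genes is one of group means, which are subtracted here. The same arrays are used, and which results were known at the choice is not given. The p values below are therefore not an independent test. For each of the 48 arrays, the mean of its group was subtracted, and the 21 pairs of genes were correlated over these deviations. P values came from 100000 two-sided permutations of mice within groups, for which 1e-05 is the smallest value possible, and were adjusted by Benjamini–Hochberg over the 21 pairs.

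Hsd3b5 and Slco1a1 deviated together. Pearson's r was 0.83 (permutation p = 1e-05, adjusted p = 0.00021) and Spearman's rho was 0.81 (permutation p = 1e-05, adjusted p = 0.00021) over 48 mice. Each of the 8 groups had an r above 0, from 0.19 to 0.98, and r was 0.78 in washing batch 1 and 0.88 in batch 2. It was 0.79 without the 2 mice farthest from the median Hsd3b5 deviation. Among 20457 genes with complete values, Slco1a1 had the highest r with Hsd3b5, and Hsd3b5 the highest with Slco1a1. In the 6 fasted LWT HFD mice, replicates 1 to 6 had Hsd3b5 levels of 10.38, 11.15, 9.35, 6.25, 5.13 and 9.11. Their Slco1a1 levels were 11.21, 11.21, 10.85, 8.91, 6.37 and 10.51. Replicates 4 and 5 were lowest for both genes.

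Cish and Bcl6 deviated in opposite directions. Pearson's r was -0.76 (permutation p = 2e-05, adjusted p = 0.00021) and Spearman's rho was -0.68 (permutation p = 4e-05, adjusted p = 0.00028) over 48 mice. The r was below 0 in 7 of the 8 groups, -0.77 in washing batch 1 and -0.76 in batch 2. It was -0.72 without the 2 mice farthest from the median Cish deviation. Bcl6 had the most negative r with Cish of the 20457 genes, and the dimmer Bcl6 probe gave -0.73 although the 2 probes differed in sign for HFD in fed LWT livers. In the 6 fasted LWT CTRL mice, replicates 1 to 6 had Cish levels of 11.04, 9.17, 9.21, 8.64, 11.32 and 10.61, and their Bcl6 levels were 10.35, 12.46, 12.77, 12.84, 9.74 and 10.60. Replicates 2, 3 and 4 were low for Cish and high for Bcl6.

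Socs2 and Cish deviated together, with a Pearson's r of 0.61 (permutation p = 4e-05, adjusted p = 0.00028) and a Spearman's rho of 0.61 (permutation p = 3e-05, adjusted p = 0.00028). The r was above 0 in 8 of 8 groups and 0.65 and 0.56 in the washing batches. It was 0.58 without the 2 mice farthest from the median Socs2 deviation. Socs2 and Bcl6 had an r of -0.37 (permutation p = 0.0167, adjusted p = 0.0878) that did not pass, and the other 17 pairs had adjusted p from 0.268 upwards for Pearson's r. Hsd3b5 and Cish, for example, had an r of -0.09 (permutation p = 0.513, adjusted p = 0.719). The 3 pairs kept an r of 0.81 to 0.90, -0.76 and 0.60 to 0.61 with the scanner's background-subtracted signal, with normexp background correction and with the deposited values. The share of spots above background correlated with the deviations of Hsd3b5, Slco1a1, Socs2, Cish and Bcl6 with r between -0.14 and 0.05.

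**Figure D3:**
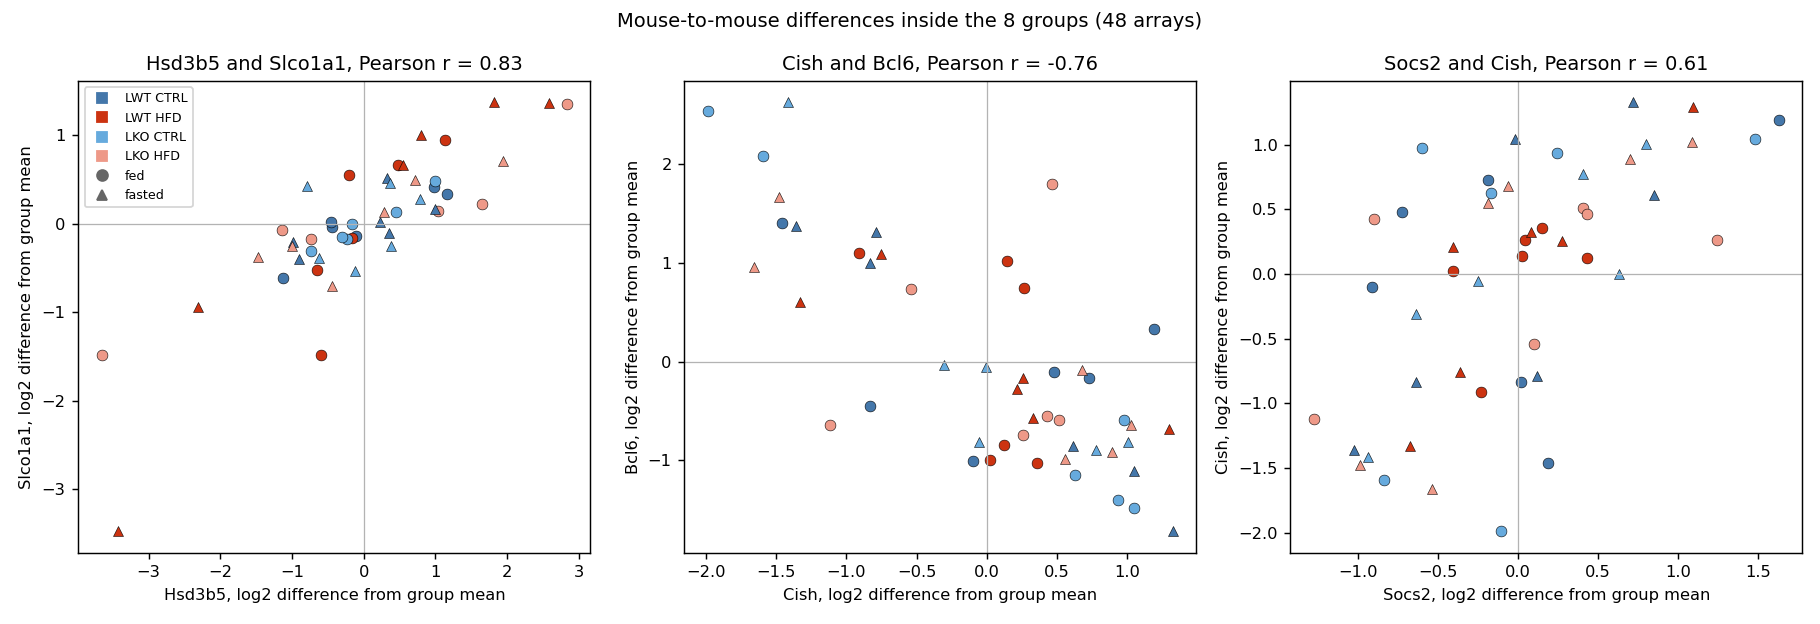
Deviation of each mouse from its group mean (log2 signal) for Slco1a1 against Hsd3b5, Bcl6 against Cish and Cish against Socs2, over 48 mice, with colours for genotype and diet and circles for fed and triangles for fasted mice. The clouds run upwards (r = 0.83), downwards (r = -0.76) and upwards (r = 0.61).

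Over the levels of all 48 arrays, which hold the differences between groups too, the 3 genes most like each member, leaving out the members themselves, were listed as a description. Hsd3b5 and Slco1a1 were closer to each other (r = 0.91) than to any of these. Cish was closest to Foxa2 (Pearson's r = 0.90), Onecut1 (0.83) and Phlda1 (0.82), of which Foxa2 and Onecut1 are hepatocyte transcription factors. Outside the 7 genes, Hsd3b5 was closest to C8b (0.89), a complement component, Cadm4 (0.88) and Gm16551 (0.84), and Slco1a1 to Cadm4 (0.83), Serpine2 (0.83) and Gm38596 (0.83). Socs2 was closest to a probe named only by its position, chr10:94870971-94871658 in mm9 (0.86), which lies between the probes that carry the name Socs2, then to Hnf4a (0.85) and Imp3 (0.85). Elovl3 was closest to Slc46a1 (0.75), and Stat5b to Ugt3a2 (0.71). Bcl6 had no close match, with its highest r at 0.53.

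Other genes of the pathway were then counted from lists. Among 12 genes of growth hormone signalling, limma called 0 for HFD in fed LKO, fasted LWT and fasted LKO livers. These counts of 0 stand beside 2.34%, 2.82% and 1.89% of all genes called. At an unadjusted p under 0.05 there were 4, 1 and 4 of the 12, for which no share of all genes is given. Between genotypes, 2 were called on CTRL diet in fed mice, 3 on HFD in fed mice and 1 on CTRL diet in fasted mice, all higher in LKO livers. On HFD in fasted mice, 0 were called higher and 1 lower, whose values are not reported here. The 2 in fed CTRL mice became 1 within each washing batch and without replicate 6 of fed LKO CTRL or replicate 1 or 3 of fed LWT CTRL. Socs3, a SOCS family inhibitor of cytokine signalling, was 1.14 higher on the log2 scale in LKO livers of fed CTRL mice (adjusted p = 0.000983) and 2.83-fold higher in fed HFD mice (adjusted p = 1.16e-05). Stat3 was higher by 0.60 (adjusted p = 0.000251) and 0.71 (adjusted p = 9.97e-06) in the same comparisons. Both comparisons use fed LWT arrays of the comparison that chose the genes, and the list was chosen with results of these data known, so these values are descriptions. The shares of all genes called were 3.73% and 6.23% in fed CTRL and HFD mice and 3.23% and 6.56% in fasted CTRL and HFD mice. In fed CTRL mice, 2 of 5 hepatocyte markers were also higher in LKO livers, among them Cps1 at 0.68 (adjusted p = 0.000133), and 1 of 4 stellate markers, Lrat, was lower, at -0.65 (adjusted p = 0.00310). The part of these markers in the results was not tested. With fasting, 4 of the 12 were called in LWT HFD livers, all higher, led by Onecut1 at 1.42 (adjusted p = 0.0207) and Socs3 at 1.04 (adjusted p = 0.000792), and 1 each in the other 3 settings, beside 4.72% of all genes in LWT HFD, 5.46% in LWT CTRL, 7.08% in LKO CTRL and 5.9% in LKO HFD livers. A count of 1 in 12 genes is near these shares. The 4 became 1 in washing batch 1 and 2 in batch 2, and 2 without replicate 1 or 6 of fed LWT HFD, and each of the other 3 counts was 0 in batch 1. The single call was also lost when any of 6 of the 12 arrays was left out in LWT CTRL and any of 8 of the 12 in LKO CTRL livers, and a lower gene was called in LWT CTRL livers without fasted replicate 5 or 6. The fasting comparison of LWT HFD livers reuses the fed arrays of the comparison that chose the genes, and the mean Onecut1 level was 11.18 in those arrays against 13.47 in fed LWT CTRL livers, so its counts are a description.

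Of 13 male-biased liver genes other than the members, 12 were kept. Under HFD, 4 were called in fed LKO livers, 4 in fasted LWT livers and 2 in fasted LKO livers, all lower, beside 2.34%, 2.82% and 1.89% of all genes. These counts were 4, 0 and 0 within washing batch 1 and 0, 2 and 0 within batch 2, with 3 mice per group. The 4 in fed LKO livers became 0 with no filter on dim probes, and 2 or fewer when any of replicates 1 to 4 of fed LKO CTRL or replicates 1, 2, 3 and 5 of fed LKO HFD was left out. The 2 in fasted LKO livers became 1 or 0 without any of replicates 1, 3, 5 and 6 of fasted LKO CTRL or 3, 5 and 6 of fasted LKO HFD. Their median log2 differences were -0.56, -0.39 and -0.29, against -0.0004, -0.0185 and -0.0006 over all genes. The cytochromes Cyp4a12a and Cyp4a12b, which hydroxylate fatty acids and whose near-identical sequences can share a probe's signal, were called in all 3. In fasted LWT livers they fell by 1.47 (adjusted p = 0.00239) and 1.54 (adjusted p = 0.00176), and Cyp7b1, an oxysterol hydroxylase, fell by 0.76 (adjusted p = 0.0311). With fasting in LWT HFD livers, 5 of the 12 were called, all higher, beside 4.72% of all genes, including Cyp4a12a at 1.35 (adjusted p = 0.00189), Egfr at 1.28 (adjusted p = 0.000311) and Cyp4a12b at 1.22 (adjusted p = 0.00538), and the count was 6 within washing batch 1 and 0 within batch 2. The list was chosen with results of these data known, and this comparison reuses the fed LWT HFD arrays, so the count is a description. In the other 3 fasting comparisons 1 of the 12 was called, beside 5.46% of all genes in LWT CTRL, 7.08% in LKO CTRL and 5.9% in LKO HFD livers. A count of 1 in 12 is near these shares, and it became 0 under an alternative in LWT CTRL and LKO HFD livers. The gene was Nudt7, a peroxisomal nudix hydrolase, which was lower in fasted livers. It was at -0.77 in LWT CTRL (adjusted p = 0.00758), -1.40 in LKO CTRL (adjusted p = 5.51e-06) and -1.11 in LKO HFD (adjusted p = 0.000879). The LWT CTRL comparison reuses fed arrays of the comparison that chose the genes, so it is a description. Between genotypes, single genes were called in both directions. On HFD in fed mice, 3 of the 12 were higher and 1 lower in LKO livers, beside 6.23% of all genes. That comparison reuses the fed LWT HFD arrays, so its counts are descriptions. In fasted mice, 1 was higher and 3 lower on CTRL diet, beside 3.23%, and 2 and 3 on HFD, beside 6.56%. Over the alternatives, the higher counts ran from 2 to 3, 0 to 1 and 1 to 2, and the lower from 0 to 1, 1 to 5 and 1 to 4. In fed CTRL mice, where the markers named above also differed, 5 of the 12 were called (2 higher and 3 lower), beside 3.73% of all genes. The count was 2 within washing batch 1 and 3 within batch 2. In LKO relative to LWT livers, Cyp4a12b was at -2.27 (adjusted p = 9.85e-06), Cyp4a12a at -2.18 (adjusted p = 1.56e-05) and Egfr at 0.89 (adjusted p = 0.0237). The 2 higher became 1 without replicate 2, 3 or 5 of fed LKO CTRL or 1, 3 or 4 of fed LWT CTRL. This comparison uses fed LWT CTRL arrays of the comparison that chose the genes, so its values are descriptions.

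Of 22 female-biased liver genes, 19 were kept. Under HFD, 10 were called in fed LKO livers (8 higher and 2 lower), 4 in fasted LWT livers (all higher) and 7 in fasted LKO livers (6 higher and 1 lower), beside the same shares of all genes, and their median log2 differences were 0.36, 0.25 and 0.35. Within washing batch 1 the higher genes numbered 6, 2 and 2 and the lower 1, 0 and 1, and within batch 2 they numbered 0, 4 and 3 and 0, 0 and 1. The 2 lower genes in fed LKO livers became 1 without replicate 3 or 5 of fed LKO CTRL. Cyp2b13 and Cyp2b9, cytochromes with higher expression in female liver whose similar sequences can share signal, were called higher in all 3. Cyp2b9 was at 3.29 (adjusted p = 0.00012) in fed LKO, 3.57 (adjusted p = 1.19e-05) in fasted LWT and 2.70 (adjusted p = 0.00159) in fasted LKO livers. The adjusted p of Cyp2b13 was 6.19e-08, 5.73e-07 and 0.000249. On CTRL diet, Cyp2b13 was well above background on 2 of 6 arrays in fed LKO, 2 of 6 in fasted LWT and 4 of 6 in fasted LKO livers, so its CTRL levels are near the detection limit and no size is given. Hao2, a peroxisomal hydroxyacid oxidase, was called higher in fed LKO livers (adjusted p = 0.000508), where 1 of 6 CTRL and 4 of 6 HFD arrays were well above background. In fasted LWT livers, it was so on 0 of 6 CTRL and 5 of 6 HFD arrays, and it was at least 2.82-fold higher on HFD (adjusted p = 3.05e-05), with the CTRL mean taken at the lowest signal well above background where that was higher. Lower genes included Ntrk2 at -1.41 (adjusted p = 0.00075) in fed LKO livers. Genes of this list were also called without a diet change. In fasted mice, 6 were higher and 2 lower in LKO than LWT livers on CTRL diet, beside 3.23%. On HFD they were 5 and 2, beside 6.56%. With fasting, 6 rose and 1 fell in LKO CTRL and 5 and 2 in LKO HFD livers, beside 7.08% and 5.9%. Over the alternatives, the higher counts were 1 to 7, 3 to 5, 4 to 7 and 2 to 5. The genotype and fasting comparisons with fed LWT arrays gave 1 to 4 higher and 1 to 2 lower, as descriptions.

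**Figure D4:**
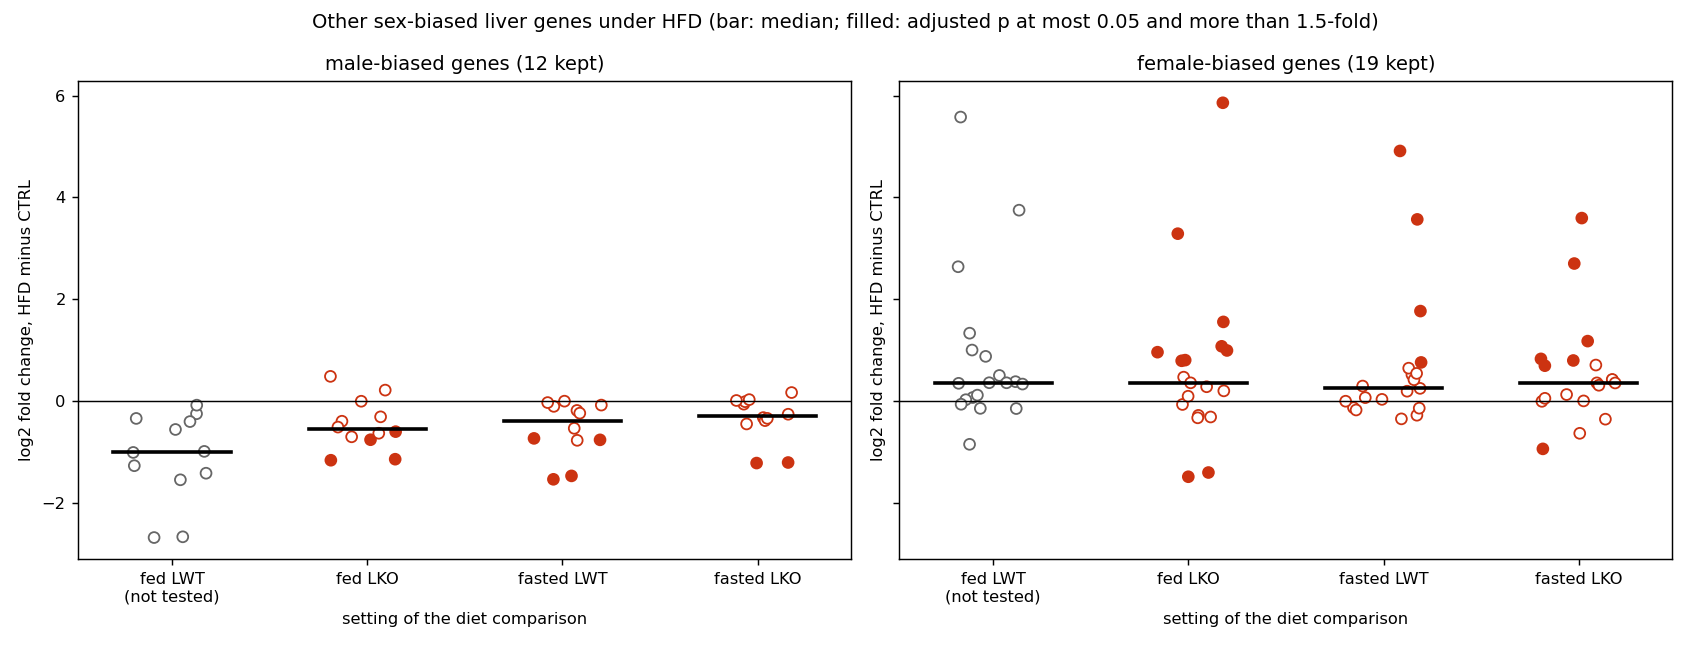
Log2 fold change of HFD over CTRL diet (y axis) for 12 male-biased genes (left) and 19 female-biased genes (right) in 4 settings (x axis). Each point is a gene, the bar is the median, and filled points passed both thresholds. Medians are below 0 for the male-biased and above 0 for the female-biased genes in all 4 settings, of which fed LWT was not tested.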

How the data were processed

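Liver RNA of 48 male mice (200 ng each) was hybridised to single-colour Agilent arrays, 1 per mouse, on 6 slides washed in 2 batches. The authors deposited scanner files with spot intensity and quality flags, made with Agilent Feature Extraction 10.10.1.1, and a table of normalized log2 values, which the authors corrected for the washing batch. Here, log2 median spot signals without background subtraction were averaged per probe, leaving out control and outlier spots. A probe was kept if any group had 5 or more of its 6 arrays flagged as well above background. Signals were then corrected for the washing batch with the groups protected, and quantile normalized. A gene was read on its brightest probe. Group means were fitted with array weights in limma 3.58.1 (R 4.3.3), with Benjamini–Hochberg adjustment across every kept probe. Genes were called below an adjusted p threshold of 0.05 when they also exceeded 1.5-fold.

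The members and gene lists were chosen with earlier results of these data known. The text names the 7 members, up to 3 called genes per direction, list and comparison, and the 3 genes most like each member. The genes named for mouse-to-mouse agreement were chosen after their values were seen. Alternatives covered the signal, background correction, normalization, filter, batch, slide, replicate number, weights, deposited log2 values, probe choice, fold threshold and single arrays. Some results for list genes are not reported here. The fit was tested on simulated data, and the outcome is not reported here. The number of mice limits the precision, and p values set a difference or correlation against the spread between mice.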

Additional observations from a re-analysis of the deposited data

Results flagged for a closer look

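In 56 sets of 6 mice (7 genes in 8 groups), 4 mice stood apart from the rest of their group by Dixon's criterion, which chance alone meets in about 1 in 20 sets. Elovl3 was 11.46 in replicate 3 of fed LKO HFD livers, where the nearest mouse had 12.90, and 13.88 in replicate 3 of fasted LKO CTRL livers, where the nearest had 12.17. Cish was 9.14 in replicate 1 of fed LWT HFD livers, with the nearest at 10.07. Bcl6 was 12.73 in replicate 6 of fasted LKO CTRL livers, with the nearest at 10.07. For Stat5b on CTRL diet, the interaction of genotype and fasting was -0.69 on the log2 scale. It uses the fed LWT CTRL arrays of the comparison that chose the genes, so it is a description.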

How the results depend on the processing

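Each count of called genes among the 7 was recomputed under the alternatives. Under HFD, the count of 1 in fed LKO livers became 2 with normexp, with slide as a block and in washing batch 1, and 0 in batch 2. In fasted LWT livers the 2 became 0 in batch 1, and in fasted LKO livers the 0 became 1 in batch 2 and with no fold threshold. Between genotypes, the 0 in fed CTRL mice became 1 with slide as a block and with no fold threshold, and the 1 in fed HFD mice became 2 with normexp, slide as a block and no array weights (deposited values too). The 2 in fasted CTRL mice became 1 without the filter, without batch correction, with batch, slide or replicate number as a block, without weights (deposited values too) and with the median over probes, 0 in batch 2 and 3 with no fold threshold. With fasting, the 0 in LWT CTRL livers became 1 in batch 2, with slide as a block, with the median over probes, with no fold threshold and without the 2 arrays nearest to another group, an alternative chosen after seeing the data. The 1 in LKO CTRL became 2 with normexp and no fold threshold and 0 in batch 1, the 2 in LWT HFD became 1 in batch 2, and the 2 in LKO HFD became 1 in either batch. Among interactions, genotype by diet in fasted mice and diet by fasting in LKO mice went from 0 to 1 with no fold threshold, genotype by fasting on CTRL diet from 1 to 0 in either batch, and on HFD from 0 to 1 with the processed signal, normexp, slide as a block and without the 2 arrays. Leaving out single arrays gave 1 to 2, 2 to 2 and 0 to 1 for HFD in fed LKO, fasted LWT and fasted LKO, 0 to 1, 1 to 2, 1 to 2 and 2 to 3 between genotypes (fed CTRL, fed HFD, fasted CTRL, fasted HFD), 0 to 2, 0 to 1, 2 to 3 and 2 to 2 for fasting (LWT CTRL, LKO CTRL, LWT HFD, LKO HFD), and, for the interactions, 1 to 1 for genotype by fasting on CTRL diet and 0 to 1 for each of the others. The batch fits have 3 mice per group, and the cause of the other changes was not tested. The untested Bcl6 difference in fed LWT livers turned to -0.051 with the median over probes. Replicate numbers did not pair the mice (median r of same-numbered arrays 0.01), and with the replicate block Bcl6 in fasted CTRL mice was at -1.63 (adjusted p = 0.0684), the only named call lost.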

Other observations

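Over the deviations of mice from their group means, Cish was most like Foxa2 (r = 0.92) among 20457 genes, with Onecut1 at 0.85. Bcl6 was most opposite to Onecut1 (r = -0.77). Hsd3b5 was most opposite to Slc22a29 (r = -0.81) and Fmo1 (r = -0.77), and after Slco1a1 it was most like Cadm4 (0.76) and C6 (0.74), a complement component. These genes were chosen after their values were seen, over 48 mice, and the values are descriptions.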
